A study of Mus musculus with 16 samples.

Results

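The growth hormone and STAT5 axis of the liver was followed through 10 genes, named by symbol and looked up in the table of gene counts. They are the receptor gene Ghr, the transcription factor genes Stat5a and Stat5b, the secreted products Igf1 and Igfals, the feedback inhibitors Socs2 and Cish, and Bcl6, Cux2 and Onecut1, which encode transcription factors tied to sex differences in the liver. All 10 were among the 41079 genes of the table, and all 10 were among the 16742 genes that had enough reads to be tested.

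Growth hormone from the pituitary binds its receptor on hepatocytes and activates the kinase JAK2, which phosphorylates STAT5A and STAT5B. STAT5 drives transcription of Igf1, of Igfals, whose product holds IGF1 in long-lived complexes in blood, and of Socs2 and Cish, whose products damp the same receptor. Male rodents release growth hormone in pulses and females release it almost continuously, and the liver turns that pattern into sex-biased gene expression, with the repressor gene Bcl6 higher in males and the repressor gene Cux2 higher in females.

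Liver RNA was compared between mice that lack the glucagon receptor in hepatocytes and controls that keep it, in both sexes, at 20 to 22 months of age. There were 4 male CRE-, 4 male LKO, 4 female CRE- and 4 female LKO livers, on the C57BL/6J background. Each library held between 33268424 and 56488920 reads on genes. LKO mice carried floxed Gcgr alleles and a Cre transgene under the albumin promoter, and CRE- controls carried the same floxed alleles without Cre. The deletion is therefore limited to cells that express albumin and has been in place since development. Mice with Cre and no floxed allele were not among the groups. Growth hormone, IGF1 and STAT5 phosphorylation were not analysed here, so all values are RNA levels. In whole liver, fewer cells of a type and less RNA per cell cannot be told apart. The p-values measure the spread between these mice, 4 in a group.

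Values are CPM, counts relative to the TMM-scaled total of a library, and replicates are listed in the order 1 to 4. Differences are log2 fold changes, LKO minus CRE- unless stated, from edgeR's quasi-likelihood test (QL test) fitted to all 16 livers, with p adjusted over the 16742 genes by the method of Benjamini and Hochberg (BH). A gene was called at an adjusted p under 0.05.

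Male LKO replicate 1 stood apart from the other males in sex-biased genes before any comparison of genotypes. Across 17 male-biased growth hormone targets its mean log2 CPM was 3.33, whereas the other males lay between 5.51 and 6.98 and the female CRE- livers between 1.84 and 2.27. Across 18 female-biased targets its mean was 3.69, against 0.61 to 2.60 in the other males and 7.14 to 7.63 in the female CRE- livers. Of these genes, 13 of the 17 were below every other male and 12 of the 18 were above every other male. It had Xist at 0.0514 CPM and Ddx3y at 58.0 CPM, both within the range of the other males, so its transcripts of the sex chromosomes were those of its label. Male CRE- replicate 3 had the largest share of mitochondrial reads, 6.19% against 2.83% in female LKO replicate 4, the lowest. In female LKO replicate 1 the most abundant transcript was Gm26917, with 5.69% of the reads, where Alb was the most abundant in the other 15 libraries. The chi-square per gene against the other replicates of the group was taken over genes with at least 20 reads in a pair. It was 336 to 437 for male CRE- replicate 3, 410 to 522 for female LKO replicate 1 and 203 to 234 for male LKO replicate 1. These 3 were the livers left out together. Female LKO replicate 4, at 295 to 410, and female CRE- replicate 4, at 228 to 280, reached higher values than male LKO replicate 1 and were kept.

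**Figure D1:**
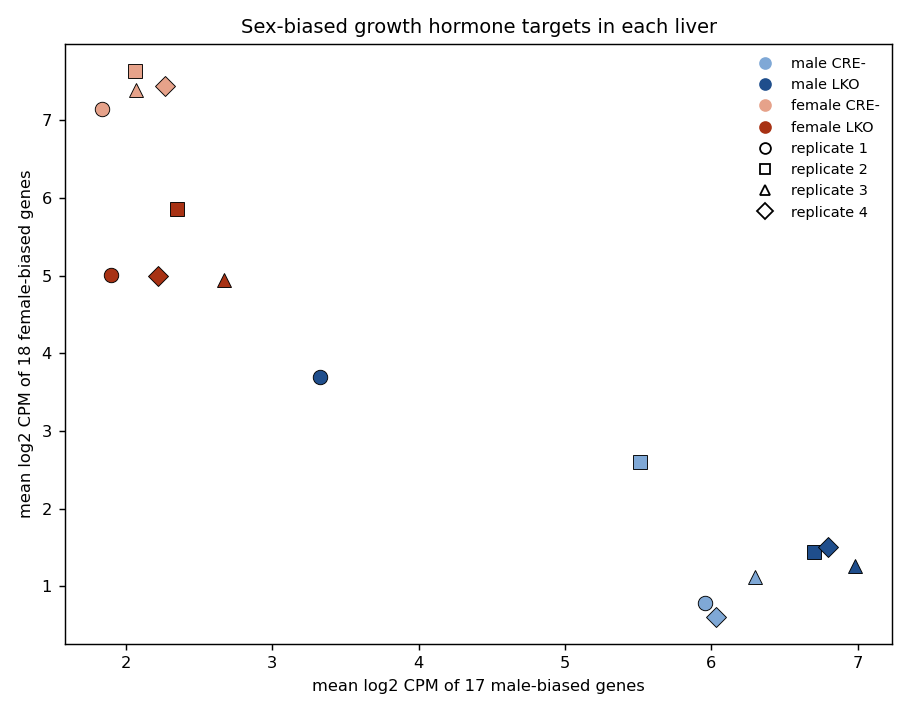
Each point is a liver, placed by its mean log2 CPM over 18 female-biased and 17 male-biased growth hormone targets, with the groups by colour. Male LKO replicate 1, at 3.33 on the male-biased and 3.69 on the female-biased targets, lies between the males and the females.

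Gcgr, the targeted gene (chr11:120420011-120429815, plus strand, GRCm39), was at 162, 208, 201 and 180.0 CPM in female CRE- livers and at 48.8, 132, 119 and 93.6 CPM in female LKO livers. Each female LKO value was below each female control. In males it was at 190.4, 193, 127 and 189.6 CPM in CRE- and 116.5, 136, 129.9 and 160.3 CPM in LKO livers, and male CRE- replicate 3 lay among the LKO values. The female log2 fold change was -0.93 (SE 0.25, edgeR QL test, BH-adjusted p = 0.0443) and the male one -0.37 (SE 0.24, edgeR QL test, BH-adjusted p = 0.671). The difference between the sexes was -0.57 (edgeR QL test, BH-adjusted p = 0.412). The female call was lost without any CRE- replicate, at adjusted p = 0.0573, 0.136, 0.112 and 0.0907 for replicates 1 to 4 in the edgeR QL test, and without LKO replicates 1, 3 and 4, at 0.0802, 0.0519 and 0.0841. For Gcgr it was also lost with no filter, at 0.0545, with at least 10 counts in every library, at 0.0506, and with the females fitted alone, at 0.132. The count covers the whole gene, with exons that lie outside the floxed stretch, so residual reads do not measure intact receptor transcript.

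The liver label was checked on 8 hepatocyte markers, of which Alb was the most abundant and none was at 0 in any library. Their summed level was 73130, 100800, 105600 and 98420 CPM in male CRE-, 66050, 81760, 93730 and 81970 CPM in male LKO, 115400, 113600, 119900 and 135200 CPM in female CRE- and 50120, 92350, 91240 and 69230 CPM in female LKO livers. All 4 female LKO sums were below all 4 female control sums, with female LKO replicate 1 the lowest of the 16. No hepatocyte marker was called in either sex by edgeR, while 3 in females and 2 in males had an unadjusted p under 0.05, and DESeq2 called 2 in females and 0 in males. Without female LKO replicate 2 or without replicate 3, edgeR called 1 in females. Their median log2 fold change was -0.73 in females and -0.08 in males, beside 0.04 and -0.01 over all genes tested. The part of this shift in the female results for the growth hormone genes was not tested.

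In female LKO livers 2 of the 10 growth hormone genes fell, Ghr and Igfals, and none of the 10 rose (edgeR QL test with BH adjustment). Across all genes 4.24% were called in females. DESeq2 called the same pair among 1809 genes in all, and limma-voom with sample quality weights added Igf1, among 1976. The count was 1, with Igfals alone, without female CRE- replicate 2, 3 or 4, and also when the females were fitted alone. In male LKO livers 0 of the 10 were called by edgeR, against 0.454% of all genes, while 5 had an unadjusted p under 0.05, 2 higher and 3 lower, as had 1595 of all genes. DESeq2 called 2 of these in males, Cux2 and Onecut1, among 339 genes in all, and limma-voom 0 among 148. By edgeR 0 of the 10, and 0% of all genes, were called in the difference between the sexes. At an unadjusted p under 0.05 that test held 4 of the 10 and 2672 of all genes. DESeq2 called Igfals and 371 genes in all there, and limma-voom 0 of the 10 and 29 genes in all. With 1 library left out edgeR called 14 genes there without male LKO replicate 1 or female LKO replicate 3, 10 without female LKO replicate 2, 2 without male CRE- replicate 2 or female LKO replicate 4, and otherwise 0.

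The number of genes behind these shares moved with single mice. In females edgeR called 710 genes, but leaving out a control gave 385, 87, 122 and 110 (CRE- replicates 1 to 4) and leaving out a knockout gave 237, 1310, 536 and 404 (LKO replicates 1 to 4). In males it called 76, but between 26 and 49 with any 1 of the 8 males left out. For the 10 genes the median log2 fold change was -0.22 in females and -0.03 in males, beside 0.04 and -0.01 over all genes tested. In females LKO and control values did not overlap for 3 of the 10, with Ghr and Igfals lower and Socs2 higher, and this was so for 11.6% of all genes. In males it was Igf1 alone, which was lower, against 6.49% of all genes.

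**Figure D2:**
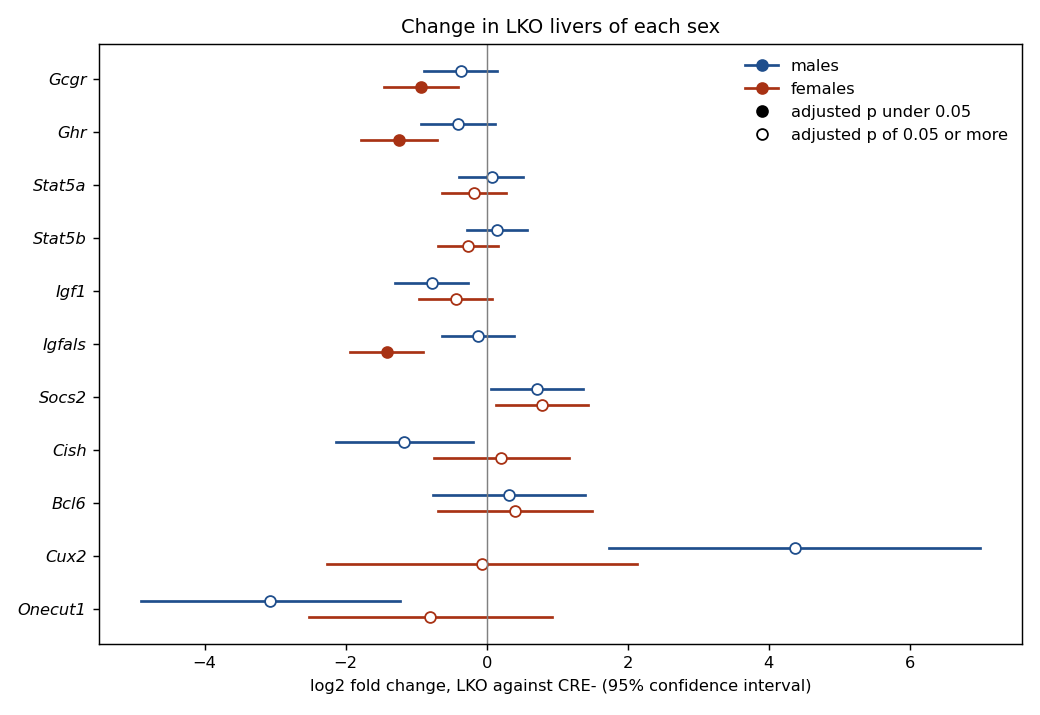
Points are log2 fold changes of LKO against CRE- livers for Gcgr and the 10 growth hormone genes, in males and females, with 95% confidence intervals, and filled points passed an adjusted p of 0.05. The filled points are Gcgr, Ghr and Igfals in females, at -0.93, -1.24 and -1.42.

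Ghr encodes the growth hormone receptor (chr15:3347237-3612834, minus strand, GRCm39). It was at 372, 470.3, 479 and 428 CPM in female CRE- livers and at 128, 246, 206 and 158 CPM in female LKO livers. All female LKO livers were below all female controls, with LKO replicate 1 the lowest. The group levels were 437 ± 49 CPM (SD, n = 4) and 184.5 ± 52.1 CPM (SD, n = 4), and the LKO level was 0.422 of the control level in the fit. Ghr thus fell in females. The fitted log2 difference was -1.24 (SE 0.25, edgeR QL test, BH-adjusted p = 0.0184), with a 95% interval of -1.78 to -0.71. The call was lost without female CRE- replicate 2, 3 or 4, at adjusted p = 0.0666, 0.0561 and 0.0533 in the edgeR QL test, and with the females fitted alone, at 0.0501. With each female left out in turn the log2 fold change of Ghr was between -1.42 and -1.08.

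In males Ghr was at 425, 538, 515 and 387 CPM in CRE- livers and 193, 444, 396 and 376 CPM in LKO livers. Male LKO replicate 1 was the lowest male, and replicates 2 and 3 lay within the control range. The male log2 fold change was -0.40 (SE 0.25, edgeR QL test, BH-adjusted p = 0.646), with a 95% interval of -0.93 to 0.12. Leaving out male LKO replicate 1 gave -0.22. The female effect minus the male effect was -0.84 (SE 0.35, edgeR QL test, BH-adjusted p = 0.271), with an unadjusted p of 0.0292 in the same test, so a difference between the sexes did not pass.

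STAT5A and STAT5B carry the signal of the receptor to the nucleus. Stat5a (chr11:100750177-100775995, plus strand) was at 15.8, 14.8, 17.8 and 12.9 CPM in male CRE-, 12.2, 14.03, 22.1 and 15.9 CPM in male LKO, 18.05, 26.6, 16.1 and 14.65 CPM in female CRE- and 16.5, 13.8, 16.8 and 19.4 CPM in female LKO livers. Stat5b (chr11:100671557-100741407, minus strand), the more abundant of the pair per kilobase of exon, was at 67.9, 53.4, 77.6 and 52.3, then 65.8, 58.15, 99.25 and 55.1, then 73.8, 88.55, 82.99 and 64.98 and then 79.02, 62.7, 57.3 and 58.9 CPM in the same order of groups. For both genes the 4 groups overlapped. The highest male value of each was that of male LKO replicate 3, and the highest female value of each that of female CRE- replicate 2. The log2 fold changes of Stat5a were 0.07 (SE 0.21, edgeR QL test, BH-adjusted p = 0.942) in males and -0.18 (SE 0.21, edgeR QL test, BH-adjusted p = 0.683) in females. Those of Stat5b were 0.15 (SE 0.20, edgeR QL test, BH-adjusted p = 0.847) in males and -0.27 (SE 0.20, edgeR QL test, BH-adjusted p = 0.486) in females. The 95% intervals of Stat5b ran from -0.28 to 0.57 in males and from -0.69 to 0.16 in females. The sign was not stable in males. For Stat5b it turned to -0.07 without LKO replicate 3, and for Stat5a to -0.12 without the same liver and to -0.005 without CRE- replicate 4. In females that of Stat5a turned to 0.03 without CRE- replicate 2.

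Igf1 encodes the circulating growth factor made mainly by hepatocytes (chr10:87694127-87772909, plus strand). In males it was at 434, 701, 763 and 504 CPM in CRE- livers and 259.6, 362, 414.5 and 359 CPM in LKO livers. Every male LKO liver was below every male control, and the gap between the highest LKO and the lowest control was small beside the spread within the controls. The male levels were 601 ± 156 CPM (SD, n = 4) and 349 ± 64.7 CPM (SD, n = 4). The log2 fold change was -0.78 (SE 0.25, edgeR QL test, BH-adjusted p = 0.249), with a 95% interval of -1.30 to -0.26 and an unadjusted p of 0.00565, so Igf1 was not called in males. With each male left out it was between -0.92 and -0.66.

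In females Igf1 was at 499.9, 574, 590.0 and 505 CPM in CRE- livers and 605.5, 379, 276 and 336.5 CPM in LKO livers. Female LKO replicate 1 was above every control, and the remaining LKO livers were below every control. The female log2 fold change was -0.44 (SE 0.25, edgeR QL test, BH-adjusted p = 0.32). With sample quality weights in limma-voom it was -0.77 with an adjusted p of 0.0139, and the gene was then called. Without female LKO replicate 1 it was -0.69, with an adjusted p of 0.125 by edgeR. The female effect on Igf1 minus the male effect was 0.34 (SE 0.35, edgeR QL test, BH-adjusted p = 0.626).

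Igfals encodes the acid-labile subunit of the IGF complex in blood (chr17:25096818-25100985, plus strand). Female CRE- livers had 139.5, 182, 155 and 187 CPM and female LKO livers 46.5, 87.6, 63.2 and 50.8 CPM. All female controls were above all other livers in the series, and all female LKO livers were below them by a clear gap. The female levels were 166 ± 22.5 CPM (SD, n = 4) and 62.01 ± 18.5 CPM (SD, n = 4), and the LKO level was 0.374 of the control level in the fit. Igfals fell in females, and the fitted log2 difference was -1.42 (SE 0.25, edgeR QL test, BH-adjusted p = 0.00939), with a 95% interval of -1.94 to -0.90. It was called with any 1 of the 8 females left out, at adjusted p between 0.00531 and 0.0346 by edgeR, and in each of the 8 other settings run.

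Igfals in males was at 67.4, 121, 64.8 and 82.75 CPM in CRE- and 54.4, 83.8, 73.1 and 96.03 CPM in LKO livers, and these overlapped throughout. The male log2 fold change was -0.13 (SE 0.24, edgeR QL test, BH-adjusted p = 0.895), with a 95% interval of -0.64 to 0.38, and it turned to 0.10 without male CRE- replicate 2 and to 0.01 in limma-voom. The female effect minus the male effect was -1.29 (SE 0.34, edgeR QL test, BH-adjusted p = 0.167), with an unadjusted p of 0.00166 and a 95% interval of -2.02 to -0.56. DESeq2 called this difference between the sexes, at an adjusted p of 0.0298, and edgeR and limma-voom did not. In controls the sex difference, female minus male, was 0.98 (SE 0.24, edgeR QL test, BH-adjusted p = 0.0741), with no overlap. It was called by DESeq2 at an adjusted p of 0.00849, by limma-voom at 0.0172, and by edgeR with a replicate block, at 0.0135, or without male CRE- replicate 2, at 1.21 and 0.0274. Among LKO livers the same difference was -0.31 (SE 0.24, edgeR QL test, BH-adjusted p = 0.556).

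Socs2 and Cish encode inhibitors that STAT5 induces and that act back on the receptor. Socs2 (chr10:95219765-95253176, minus strand) was at 20.9, 23.3, 21.5 and 19.03 CPM in female CRE- and 37.8, 46.95, 30.1 and 30.75 CPM in female LKO livers. In males it was at 9.88, 28.1, 13 and 11.55 CPM in CRE- and 37.8, 16.3, 19.2 and 28.99 CPM in LKO livers. Every female LKO liver was above every female control, whereas in males CRE- replicate 2 lay among the LKO livers. The log2 fold change was 0.78 (SE 0.31, edgeR QL test, BH-adjusted p = 0.149) in females and 0.71 (SE 0.31, edgeR QL test, BH-adjusted p = 0.467) in males, and neither was called. With the unadjusted p at 0.0216 and 0.0348, the means of the LKO livers were higher than those of the controls in both sexes. The male value was 0.45 without LKO replicate 1 and 1.16 without CRE- replicate 2. The difference between the sexes was 0.07 (edgeR QL test, BH-adjusted p = 0.953).

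Cish (chr9:107173858-107179983, plus strand) was at 11.1, 34.5, 25.9 and 7.57 CPM in male CRE- and 13.4, 9.58, 5.27 and 6.915 CPM in male LKO livers. Male CRE- replicates 2 and 3 were above all male LKO livers, and CRE- replicates 1 and 4 lay within the LKO range. In females it was at 16.7, 18.3, 16.9 and 15.4 CPM in CRE- and 6.67, 16.01, 26.7 and 28.2 CPM in LKO livers. The female controls lay close together and the LKO livers spread to both sides of them, with replicate 1 low and replicates 3 and 4 high. The log2 fold change of Cish was -1.17 (SE 0.46, edgeR QL test, BH-adjusted p = 0.396) in males, with an unadjusted p of 0.0211, and 0.20 (SE 0.45, edgeR QL test, BH-adjusted p = 0.846) in females. Leaving out female LKO replicate 4 gave -0.01 in females, and leaving out male CRE- replicate 2 gave -0.75 in males. The female effect minus the male effect was 1.37 (SE 0.64, edgeR QL test, BH-adjusted p = 0.311), with an unadjusted p of 0.0477. Socs2 and Cish, both known as STAT5 targets, thus had values on opposite sides of 0 in males, and neither passed the test.

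Bcl6 encodes a repressor that is higher in male liver and binds many of the same places as STAT5 (chr16:23780058-23807602, minus strand). It was at 50.3, 10.5, 10.7 and 46.25 CPM in male CRE- and 11.8, 34.02, 63.55 and 37.4 CPM in male LKO livers. The males fell into a high and a low set in both genotypes, with CRE- replicates 2 and 3 and LKO replicate 1 low. Females were low throughout, at 8.14, 4.30, 8.40 and 7.99 CPM in CRE- and 10.75, 9.30, 6.02 and 12.03 CPM in LKO livers. The log2 fold change was 0.32 (SE 0.51, edgeR QL test, BH-adjusted p = 0.872) in males, where it turned to -0.09 without LKO replicate 3, and 0.40 (SE 0.51, edgeR QL test, BH-adjusted p = 0.709) in females. The difference between the sexes in this effect was 0.09 (edgeR QL test, BH-adjusted p = 0.968).

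In controls the sex difference of Bcl6, female minus male, was -2.03 (SE 0.53, edgeR QL test, BH-adjusted p = 0.0929), and every female control was below every male control. That difference was not called by edgeR on all 16 livers, but was called without male CRE- replicate 2, at -2.31 and an adjusted p of 0.0459, by DESeq2 at 0.00429 and by limma-voom at 0.0325. In LKO livers it was -1.95 (SE 0.53, edgeR QL test, BH-adjusted p = 0.0814). Without male LKO replicate 1 it was -2.24 with an adjusted p of 0.0317 in the edgeR QL test, and DESeq2 and limma-voom on all livers gave 0.00615 and 0.0242.

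Cux2 encodes a repressor that is normally on in female and nearly off in male liver (chr5:121996025-122188522, minus strand). Male CRE- livers had 0.5275, 1.715, 0.416 and 0.360 CPM and male LKO livers 60.35, 0.833, 0.894 and 0.540 CPM. The value of male LKO replicate 1 was within the female range, and the remaining male LKO livers were within the range of the male controls. Female CRE- livers had 51.2, 38.7, 66.7 and 48.4 CPM and female LKO livers 36.85, 96.4, 37.2 and 25.6 CPM, with the highest value in LKO replicate 2. The male log2 fold change of Cux2 was 4.36 (SE 1.25, edgeR QL test, BH-adjusted p = 0.174), and it was -0.005 without LKO replicate 1, with an adjusted p of 0.999. DESeq2, with that liver included, gave 4.37 in males and an adjusted p of 0.0115. In females the value was -0.06 (SE 1.04, edgeR QL test, BH-adjusted p = 0.983). The female effect minus the male effect was -4.43 (SE 1.59, edgeR QL test, BH-adjusted p = 0.229), and -0.06 without male LKO replicate 1.

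Cux2 was the 1 gene of the 10 that edgeR called between the sexes in controls, against 0.92% of all genes. It was higher in female CRE- livers by a log2 fold change of 6.08 (SE 1.33, edgeR QL test, BH-adjusted p = 0.0394), with a 95% interval of 3.26 to 8.89 and no overlap. With any 1 of the 8 controls left out the direction held, at 5.84 to 6.87. The adjusted p of Cux2 was then between 0.059 and 0.153 in the edgeR QL test. Cux2 was called in 7 of the 8 other settings, among them the 2 control groups fitted alone. The fits with a control left out shared 1 estimate of the spread over all groups, with male LKO replicate 1 in it. The part of that liver in these adjusted p was not tested. At an unadjusted p under 0.05 there were 4 of the 10 and 2121 of all genes in this comparison, and DESeq2 and limma-voom each called 3, with Bcl6 and Igfals added to Cux2, among 506 and 329 genes in all. The 154 genes called in all were 68 and 74 without male CRE- replicates 1 and 3, and 82, 71, 90 and 71 without female CRE- replicates 1 to 4. Among LKO livers edgeR called 0 of the 10 between the sexes, against 1.13% of all genes, with 3, and 2991 of all genes, at an unadjusted p under 0.05. DESeq2 called Ghr and Bcl6 there, among 1057 genes in all, and limma-voom Cux2, Cish, Ghr and Bcl6, among 953. The 189 genes called in all became 405, 49, 73 and 54 without male LKO replicates 1 to 4, and 106, 684 and 80 without female LKO replicates 1, 2 and 4. For Cux2 this difference was 1.65 (SE 1.07, edgeR QL test, BH-adjusted p = 0.455), and without male LKO replicate 1 it was 6.01 with an adjusted p of 4.22e-05. For Ghr it was -0.93 (SE 0.25, edgeR QL test, BH-adjusted p = 0.0793), and the call appeared without male LKO replicate 1, at -1.12 and 0.0138, and without female LKO replicate 2, at -1.10 and 0.0346, and with a replicate block, at 0.0211.

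Onecut1 encodes HNF6, a hepatocyte factor whose level follows growth hormone (chr9:74769203-74796930, plus strand). It was at 2.90, 16.35, 49.45 and 0.966 CPM in male CRE- and 1.415, 3.31, 1.04 and 2.51 CPM in male LKO livers. Male CRE- replicates 2 and 3 were above all other livers, and CRE- replicates 1 and 4 lay among or below the LKO livers. Female CRE- livers had 8.23, 5.80, 4.12 and 1.87 CPM and female LKO livers 4.33, 1.32, 2.54 and 3.30 CPM, which overlapped. In males the log2 fold change of Onecut1 was -3.07 (SE 0.87, edgeR QL test, BH-adjusted p = 0.168), and it was -1.70 without male CRE- replicate 3. DESeq2 gave -3.10 with an adjusted p of 0.0245, and limma-voom -0.90 with 0.596. The female value was -0.80 (SE 0.81, edgeR QL test, BH-adjusted p = 0.621), or -0.46 without CRE- replicate 1, and the difference between the sexes 2.26 (edgeR QL test, BH-adjusted p = 0.338), or 0.90 without male CRE- replicate 3 and -0.25 in limma-voom.

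Several of the 10 genes split the male controls along the same line. CRE- replicates 2 and 3 had the highest Ghr, Igf1, Socs2, Cish and Onecut1 and the lowest Bcl6 of the 4 male controls. For Igf1 they were at 701 and 763 CPM against 434 and 504 CPM in replicates 1 and 4. For Bcl6 they were at 10.5 and 10.7 CPM against 50.3 and 46.3 CPM. Stat5a, Stat5b, Igfals and Cux2 did not divide the male controls in this way. Igfals was highest in replicate 2, at 121 CPM, and lowest in replicate 3, at 64.8 CPM. Socs2 in replicate 3, at 13 CPM, was close to replicate 4, at 11.55 CPM. The split was noticed in the values and has no test, and its cause was not tested. Male LKO replicate 1 had the lowest Ghr and Igf1 and the highest Cux2 of the 8 males. Its Bcl6 was the lowest of the male LKO livers and its Socs2 the highest of the males. The levels of Cish were closer together in female than in male controls, with an SD of 1.19 CPM against 12.6 CPM in male CRE- livers.

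**Figure D3:**
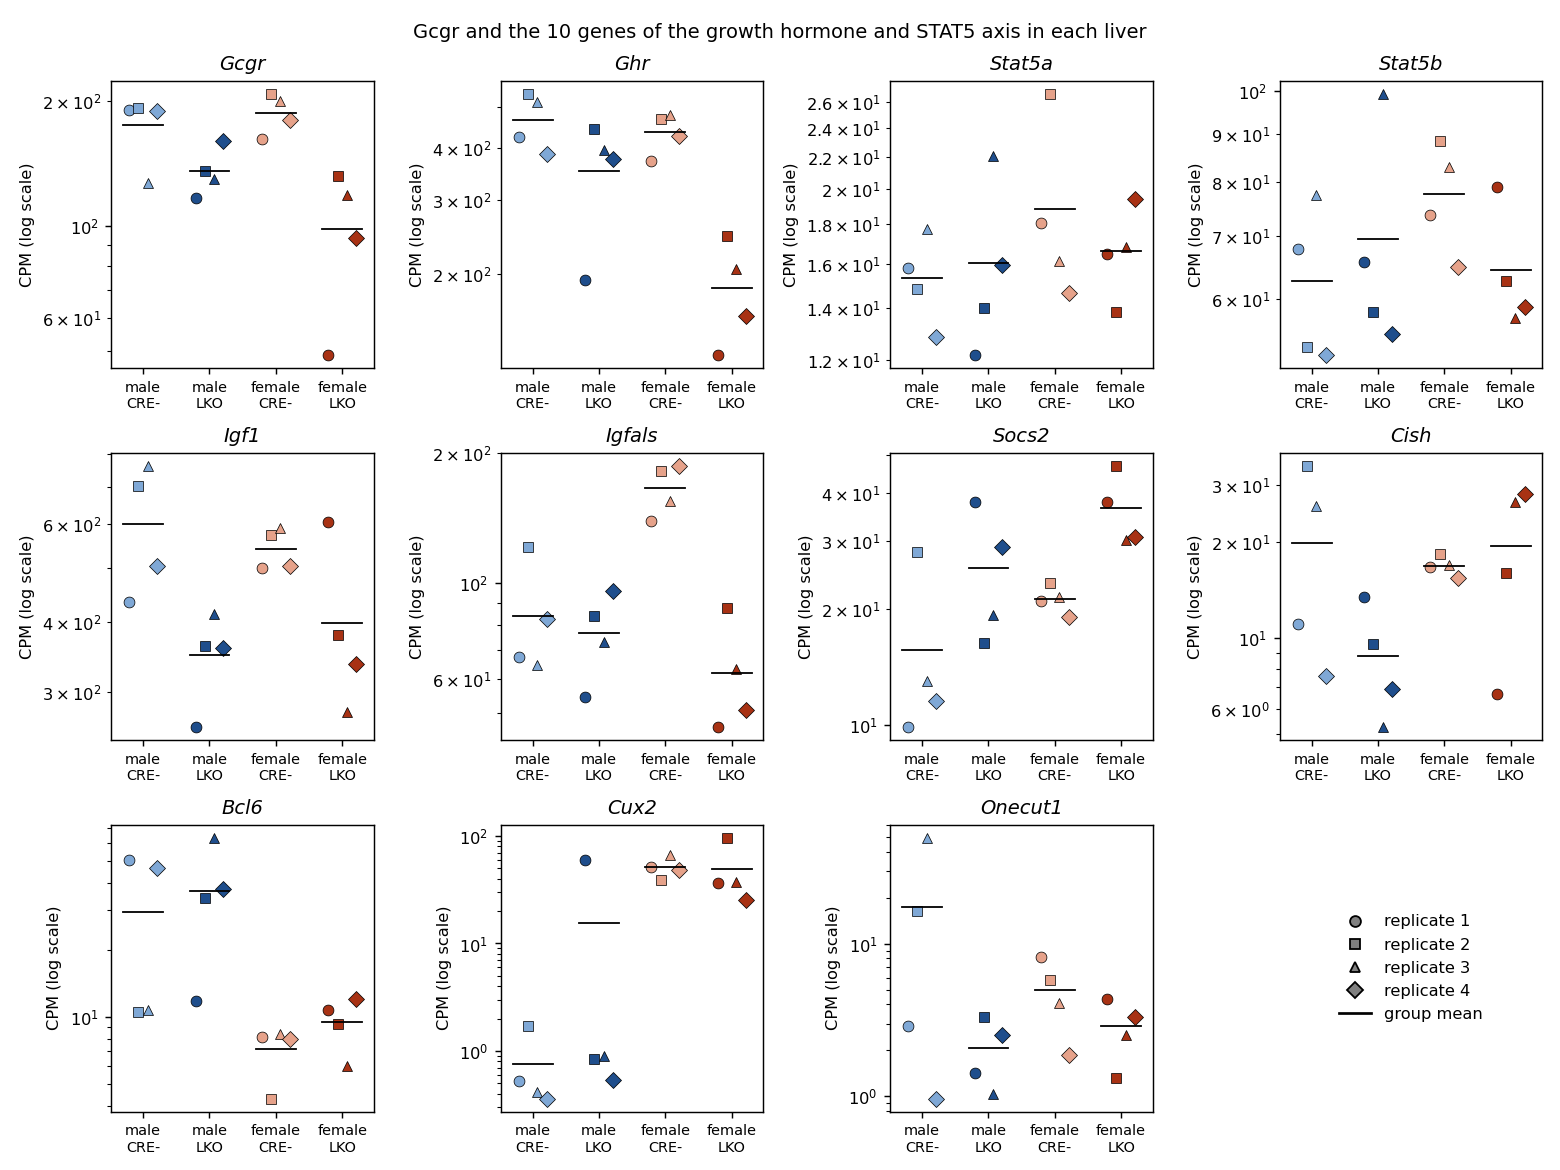
Each panel shows the CPM of a gene on a log scale in the 16 livers by group, with a marker shape for each replicate and a line at the group mean. Male LKO replicate 1 has Cux2 at 60.4 CPM, and male CRE- replicates 2 and 3 have the highest Cish and Onecut1 of the male controls.

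Per kilobase of exon, mean levels of Ghr, Igf1 and Igfals were the highest of the 10 in every group. In male CRE- livers they were 103, 69.9 and 35.2 CPM per kilobase, and in male LKO livers 78, 40.6 and 32.2 CPM per kilobase. In female CRE- livers they were 96.8, 63.1 and 69.4 CPM per kilobase, and in female LKO livers 40.8, 46.5 and 26 CPM per kilobase. Ghr was thus ahead of Igf1 in each group except female LKO, where Igf1 was ahead. Stat5b stood between 7.89 and 9.75 CPM per kilobase and Stat5a between 3.47 and 4.27 CPM per kilobase across the groups. The lowest level of the 10 was that of Cux2 in male CRE- livers, at 0.0817 CPM per kilobase.

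Ordered by group mean, Ghr ran from male CRE- through female CRE- and male LKO to female LKO, at 466, 437, 352 and 184.5 CPM, and each pair of neighbours overlapped. Igf1 ran from male CRE- and female CRE- to female LKO and male LKO, at 601, 542, 399 and 349 CPM, again with overlap between all neighbours. For Igfals only female CRE- livers, at 166 CPM, were apart from their neighbour, and male CRE-, male LKO and female LKO, at 84.03, 76.8 and 62.01 CPM, overlapped in that order. Socs2 went the other way round, from female LKO through male LKO and female CRE- to male CRE-, at 36.4, 25.6, 21.2 and 15.6 CPM, with overlapping neighbours. Cish was at 19.8, 19.4 and 16.8 CPM in male CRE-, female LKO and female CRE- livers, which overlapped, and at 8.78 CPM in male LKO livers, all of which were below all female controls. Bcl6 ran from male LKO and male CRE- to female LKO and female CRE-, at 36.7, 29.5, 9.525 and 7.21 CPM, and neighbours overlapped. Cux2 was at 51.3 and 49.02 CPM in female CRE- and LKO livers and at 15.65 and 0.755 CPM in male LKO and CRE- livers, where the overlap of male and female LKO livers is male LKO replicate 1 alone. For Stat5a, Stat5b and Onecut1 all neighbours in the order overlapped.

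The genes most like 5 of the 10 were sought among 13098 genes by Pearson's r of deviations from the group means over the 16 livers, as a description without a test. Igf1 was followed most closely by Zbtb7a, Uba1 and Psmd1, at r of 0.96, 0.93 and 0.92. For Cish the closest were Lyrm7, 1700007L15Rik and Rexo4, at 0.89, 0.82 and 0.81, and for Socs2 they were Lratd2, Erlec1 and Slc22a27, at 0.85, 0.81 and 0.81. Bcl6 was nearest to Zfp791, Ccdc9 and Tmem138, at 0.80, 0.75 and 0.74. Cux2 was nearest to Sult2a5, Sult2a1 and Sult2a2, at 0.96, 0.95 and 0.95, a family of near-identical copies among which reads are hard to assign. Sult2a1 was at 116, 0.125, 0 and 0 CPM in male LKO livers, with replicate 1 the highest, as for Cux2. How much of that likeness rests on this liver was not tested.

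Beside the counts called in the gene lists stand 4.24% of all genes in females and 0.454% in males, and 3584 and 1595 of the 16742 genes were at an unadjusted p under 0.05. The 24 other genes of growth hormone receptor signalling were all tested. In females 1 rose and 1 fell by edgeR, and in males 0 were called, with 1 at an unadjusted p under 0.05 and 0 called by DESeq2. The median log2 fold change was 0.17 in females and -0.09 in males. Prlr, the related prolactin receptor, was at 343, 432, 362 and 457.5 CPM in female CRE- and 171, 223, 188 and 125 CPM in female LKO livers, without overlap. It fell, with a log2 fold change of -1.17 (SE 0.23, edgeR QL test, BH-adjusted p = 0.0176), and the male value was -0.28 (SE 0.23, edgeR QL test, BH-adjusted p = 0.742) and the difference between the sexes -0.90 (edgeR QL test, BH-adjusted p = 0.236). Ptpn1, a phosphatase that acts on JAK2, rose in females from 50.9, 30.7, 26.9 and 32.6 CPM to 115, 38.4, 60.8 and 63.3 CPM, a log2 fold change of 0.98 (SE 0.26, edgeR QL test, BH-adjusted p = 0.0483), against -0.42 (SE 0.26, edgeR QL test, BH-adjusted p = 0.653) in males and a difference of 1.39 (edgeR QL test, BH-adjusted p = 0.168). Without female CRE- replicate 1 or LKO replicate 2 there were 2 that rose. The call of Prlr was lost without female CRE- replicate 2 or 4, at 0.064 and 0.0553. That of Ptpn1 was lost without CRE- replicates 2, 3 and 4, at 0.156, 0.144 and 0.103, and without LKO replicates 1, 3 and 4, at 0.161, 0.0626 and 0.067. Jak2 itself was at 0.04 in males and 0.18 in females, with adjusted p of 0.977 and 0.748 in the edgeR QL test. Stat3 had all male LKO livers below all male controls, with a log2 fold change of -0.71 (SE 0.25, edgeR QL test, BH-adjusted p = 0.331), and 0.18 (SE 0.25, edgeR QL test, BH-adjusted p = 0.731) in females, where it was 0.62 with an adjusted p of 0.0511 without CRE- replicate 1, and 0.04 and 0.05 without CRE- replicates 2 and 3. Socs7 was at -0.44 and 0.31 and Ptpn6 at -0.12 and 0.92 in males and females, none of them called, although Ptpn6 was called in females without LKO replicate 2, at 1.14 and 0.0444, and was at 0.38 and 0.546 without LKO replicate 1.

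Of 15 other genes of the IGF system 12 were tested, with 2 higher and 0 lower in females and 0 called in males by edgeR. At an unadjusted p under 0.05 there were 4 higher and 1 lower in females and 2 higher and 2 lower in males, and DESeq2 called 3 higher and 1 lower in females and 1 higher in males. Their median was 0.42 in females and -0.20 in males. Igfbp1, which binds IGF1 and is held down by insulin, was at 41.2, 28.5, 25 and 28.5 CPM in female CRE- and 117, 62.75, 104 and 728 CPM in female LKO livers, and all LKO livers were above all controls. It rose in females by 3.04 (SE 0.69, edgeR QL test, BH-adjusted p = 0.0266), and the male value, also without overlap, was 2.16 (SE 0.67, edgeR QL test, BH-adjusted p = 0.237), with a difference between the sexes of 0.88 (edgeR QL test, BH-adjusted p = 0.633). The female value was 1.62 without LKO replicate 4, with an adjusted p of 0.066, and the call was also lost without CRE- replicates 2, 3 and 4, at 0.0903, 0.0848 and 0.0743. Igf2 was at 1.46, 1.25, 0.431 and 1.28 CPM in female CRE- and 2.215, 32.5, 5.67 and 458 CPM in female LKO livers, and the last of these is far above the rest. Its log2 fold change was 6.81 (SE 1.32, edgeR QL test, BH-adjusted p = 0.0162) in females and 1.20 (SE 1.15, edgeR QL test, BH-adjusted p = 0.777) in males, and the difference was 5.61 (edgeR QL test, BH-adjusted p = 0.196). Without female LKO replicate 4 it was 3.60, and the call was lost without CRE- replicates 2, 3 and 4, at 0.0654, 0.0566 and 0.0575. Igfbp2 was at 1.32 (edgeR QL test, BH-adjusted p = 0.142) in males and 1.07 (edgeR QL test, BH-adjusted p = 0.0904) in females, and Igfbp5 at -1.26 (edgeR QL test, BH-adjusted p = 0.312) and -1.37 (edgeR QL test, BH-adjusted p = 0.0762), and DESeq2 called Igfbp2 in both sexes and Igfbp5 in females. The male value of Igfbp5 was -0.56 without CRE- replicate 3.

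Of 13 liver transcription factors with growth hormone input, edgeR called 1 in each sex, Esr1, which was lower, and the medians were -0.19 in males and -0.20 in females. Leaving out female LKO replicate 2 gave 2 in females, Esr1 and Cebpa (-1.29, adjusted p = 0.0225 in the edgeR QL test), and DESeq2 called 1 in males and 2 in females. Esr1, the oestrogen receptor gene, was at 26.05, 22.9, 39.4 and 21.4 CPM in male CRE- and 14.2, 11.7, 10.7 and 6.97 CPM in male LKO livers, and at 57.2, 55.2, 40.03 and 44.8 CPM in female CRE- and 30.01, 16.8, 16.04 and 16.1 CPM in female LKO livers. It fell in both sexes without overlap, with a log2 fold change of -1.33 (SE 0.26, edgeR QL test, BH-adjusted p = 0.036) in males and -1.32 (SE 0.26, edgeR QL test, BH-adjusted p = 0.0173) in females and a difference between the sexes of 0.01 (edgeR QL test, BH-adjusted p = 0.99). The female call was lost without CRE- replicate 2, at 0.0627. The male call was lost without CRE- replicates 1, 2 and 3, at 0.0724, 0.0639 and 0.0932, and without LKO replicates 2, 3 and 4, at 0.0759, 0.0967 and 0.0948. Cebpa, Foxa2 and Tox were not called by edgeR on all 16 livers in either sex, with female values of -1.002, -0.63 and -0.25 and male values of -0.09, -0.51 and -0.68. The male value of Cebpa was 0.06 without LKO replicate 1, and without male CRE- replicate 2 Foxa2 was at -0.18 and Tox at -0.36. In females Foxa2 was at -0.38 without LKO replicate 1 and Tox at -0.03 without LKO replicate 4.

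The sex-biased targets of growth hormone, known as such from earlier work, showed their bias in the controls. There 11 of 17 male-biased genes were lower and 9 of 18 female-biased genes higher in females by edgeR. Across all genes 0.92% were called between the sexes in controls and 1.13% in LKO livers. In controls the median log2 differences of these lists, female minus male, were -3.39 and 5.11. In LKO livers they were -3.40, with 12 genes lower, and 2.81, with 6 genes higher. These LKO values include male LKO replicate 1, whose mean log2 CPM was the lowest of the males on the male-biased list, at 3.33. On the female-biased list its mean was the highest of the males, at 3.69. How far the LKO medians and counts rest on this liver was not tested. In female LKO livers 5 of the 18 female-biased genes fell and none rose, with a median of -1.46 beside 0.04 over all genes. The count was 3, 2, 2 and 2 without female CRE- replicates 1 to 4, 3, 4 and 4 without LKO replicates 1, 3 and 4, and 1 with the females fitted alone. Without LKO replicate 2 there were 5 lower and 1 higher, and DESeq2 also called 1 higher. In male LKO livers 1 rose and none fell, and the median of 0.78 was -0.30 without LKO replicate 1. Before adjustment 6 of the list passed 0.05 upward in males and 2 downward. Cyp2a4 and Sult2a1, at 3.26 and 8.28 in males, were not called by edgeR on all livers or with any 1 male left out. Each was called in 1 of the 2 other settings run. With 1 male left out Cyp2a4 ran from 2.42 to 3.77 and Sult2a1 from -0.91 to 9.78. The difference between the sexes had a median of -2.72 over the list, or -1.02 without male LKO replicate 1, but 0 of its genes were called by edgeR, with 8 at an unadjusted p under 0.05, all lower, and 4 called by DESeq2. With edgeR 1 was called when female LKO replicate 4 was left out.

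Cyp3a41b fell from 221, 286, 153 and 255 CPM in female CRE- to 21.2, 6.76, 1.90 and 23.8 CPM in female LKO livers, a log2 fold change of -4.10 (SE 0.55, edgeR QL test, BH-adjusted p = 0.00274), and was called with any female left out. Cyp3a44 fell from 397.5, 331, 191 and 205 CPM to 79.9, 16.4, 13.9 and 46.6 CPM, a log2 fold change of -2.84 (SE 0.48, edgeR QL test, BH-adjusted p = 0.00697), and was also called with any female left out, with a difference between the sexes of -3.41 (edgeR QL test, BH-adjusted p = 0.122). These P450 genes have near-identical copies, among which reads are hard to assign. Cyp3a16, Cyp3a41a and A1bg fell in females, with log2 fold changes of -1.79, -2.73 and -4.75, with adjusted p of 0.0297, 0.0298 and 0.0297 by edgeR. Cyp3a16 was not called without CRE- replicates 1 to 4, at 0.0636, 0.083, 0.0549 and 0.0679, or LKO replicate 1, at 0.0761. Cyp3a41a was not called without CRE- replicates 1 to 4, at 0.0504, 0.0868, 0.0672 and 0.0657. A1bg was not called without CRE- replicates 2, 3 and 4, at 0.0834, 0.0561 and 0.0715, or LKO replicates 1, 3 and 4, at 0.0772, 0.0503 and 0.0521. The differences between the sexes for Cyp3a16, Cyp3a41a, Cyp3a41b and A1bg had adjusted p of 0.135, 0.236, 0.352 and 0.319 in the edgeR QL test. Cyp39a1 was the female-biased gene that rose in males, from 8.50, 17.02, 17.4 and 9.035 CPM to 139, 78.2, 75.3 and 57 CPM, by 2.75 (SE 0.32, edgeR QL test, BH-adjusted p = 0.000696), and its female value was 1.06 (SE 0.30, edgeR QL test, BH-adjusted p = 0.057) and the difference -1.69 (edgeR QL test, BH-adjusted p = 0.148). It was called in males with any male left out, and in females without LKO replicate 2, at 1.12 and 0.0485.

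Of 18 male-biased genes 17 were tested. In male LKO livers 0 were called, with 3 at an unadjusted p under 0.05 and 1 called by DESeq2, and the median was 0.21. Without LKO replicate 1 the median was 0.49 and 2 were called, Cyp7b1 at 1.22 with an adjusted p of 0.0349 and Hsd3b5 at 4.49 with 0.0126. Cyp7b1 was at 77.3, 86.8, 62.2 and 74.8 CPM in male CRE- and 90.3, 181, 171.5 and 179 CPM in male LKO livers, and Hsd3b5 at 2.92, 0.847, 9.72 and 2.20 CPM and 0.103, 119, 99.7 and 47.5 CPM. In both genes male LKO replicate 1 was the lowest of its group. Over all males they were at 1.05 (edgeR QL test, BH-adjusted p = 0.1) and 4.09 (edgeR QL test, BH-adjusted p = 0.153). In female LKO livers 1 of the 17 fell and 0 rose by edgeR, or 1 rose without CRE- replicate 1, with 3 higher at an unadjusted p under 0.05 and 2 higher called by DESeq2, and the median was 0.68. The gene that fell was Nudt7, at -1.69 (SE 0.45, edgeR QL test, BH-adjusted p = 0.047), with -0.54 (SE 0.44, edgeR QL test, BH-adjusted p = 0.736) in males and a difference of -1.15 (edgeR QL test, BH-adjusted p = 0.359). It was not called without CRE- replicates 1 to 4, at 0.0635, 0.104, 0.126 and 0.091, or LKO replicates 1, 3 and 4, at 0.136, 0.0527 and 0.0956. Cyp2d9 and Gstp1 were at 1.30 and 1.14 in females and 0.90 and 0.90 in males, none of them called by edgeR on all livers. DESeq2 called both in females, at adjusted p of 0.024 and 0.0266.

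Genes of the acute phase and of fasting were measured beside the axis. Of 14 acute-phase genes 1 was called in females, Il1rn, with 6 higher at an unadjusted p under 0.05, and 0 in males, where 2 were lower at that level and DESeq2 called 1. The medians were 0.84 in females and -0.57 in males. Il1rn rose in females by 1.86 (SE 0.46, edgeR QL test, BH-adjusted p = 0.0352), with -0.12 (SE 0.45, edgeR QL test, BH-adjusted p = 0.954) in males and a difference of 1.98 (edgeR QL test, BH-adjusted p = 0.206). The call was lost without CRE- replicates 1 to 4, at 0.0561, 0.122, 0.109 and 0.0609, and without LKO replicate 4, at 1.15 and 0.0956. The summed level of the list was 49230, 20230, 21220 and 30100 CPM in female CRE- and 42800, 27060, 27780 and 62890 CPM in female LKO livers, and 22030, 22790, 19930 and 30490 CPM in male CRE- and 17430, 18640, 21370 and 18670 CPM in male LKO livers, with Hpx, Fgb or Fga the most abundant. Orm1, Orm2, Hpx and Lcn2 were at 0.54, 2.61, 0.84 and 3.31 in females and -1.79, -2.60, -0.72 and -2.03 in males, none of them called by edgeR, although DESeq2 called Orm1 in males at an adjusted p of 0.0331. With female LKO replicate 4 left out, the female values were -0.15, 1.16, 0.41 and 0.24.

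Of 11 fasting and insulin genes tested, 4 rose and 1 fell in females and 2 rose in males, and the medians were 0.82 and 0.27. Lepr, the leptin receptor gene, rose in females by 4.25 (SE 0.74, edgeR QL test, BH-adjusted p = 0.00977), and was called with any female left out. Its male value was 3.06 (SE 0.70, edgeR QL test, BH-adjusted p = 0.0759), which was called without CRE- replicate 3, at 4.08 and 0.0233, and by DESeq2, at 3.03 and 0.00339, and the difference was 1.18 (edgeR QL test, BH-adjusted p = 0.524). The others that rose were Fgf21, at 5.21 (edgeR QL test, BH-adjusted p = 0.0113) in males and 4.04 (edgeR QL test, BH-adjusted p = 0.0194) in females, Trib3, at 2.03 (edgeR QL test, BH-adjusted p = 0.0409) and 1.60 (edgeR QL test, BH-adjusted p = 0.0381), and Igfbp1 in females. The call of Fgf21 was lost without male CRE- replicates 1, 2 and 3, at 0.07, 0.0633 and 0.0688, and without female CRE- replicates 2, 3 and 4, at 0.0749, 0.0578 and 0.065, and the female value was 2.57 without LKO replicate 3. With 1 male left out Trib3 was called only without CRE- replicate 4, and otherwise had an adjusted p between 0.0759 and 0.133. With 1 female left out it was called only without LKO replicate 2 or 4, and otherwise had an adjusted p between 0.0519 and 0.133. That of Igfbp1 was lost without CRE- replicates 2, 3 and 4 and LKO replicate 4, at 0.0903, 0.0848, 0.0743 and 0.066. Srebf1 fell in females, at -1.39 (SE 0.35, edgeR QL test, BH-adjusted p = 0.0369), with -1.21 (SE 0.35, edgeR QL test, BH-adjusted p = 0.174) in males and a difference of -0.18 (edgeR QL test, BH-adjusted p = 0.878). With 1 female left out Srebf1 was called only without LKO replicate 2, and otherwise had an adjusted p between 0.0567 and 0.107. In males Srebf1 was called without LKO replicate 2, at -1.70 and 0.0287, and by DESeq2, at -1.23 and 0.0256. Leaving out female CRE- replicates 1 to 4 in turn gave 3, 1, 1 and 1 higher genes in females, and leaving out the LKO replicates in turn gave 3, 5, 3 and 3. The male count was 0 without CRE- replicate 1 or 2, and 1 without CRE- replicate 3 or any LKO replicate. In none of the 7 pathway lists did edgeR call a gene in the difference between the sexes. In the order given, 5, 6, 1, 8, 2, 6 and 2 genes had an unadjusted p under 0.05 there, and DESeq2 called 1, 1, 0, 4, 0, 1 and 1. The part of these lists in the levels of Ghr, Igf1 and Igfals was not tested.

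Markers of other cells were followed because Ghr, Igf1 and Igfals are mostly hepatocyte transcripts. In males 0 markers of any of these lists were called by edgeR or DESeq2, and at an unadjusted p under 0.05 there were 4 neutrophil, 2 erythroid and 1 stellate marker, all lower. Of 8 macrophage markers 1 rose in females, Adgre1, all 8 were at an unadjusted p under 0.05 and the median was 1.45. Their sum was 696, 500.0, 545 and 868 CPM in female CRE- and 3013, 892, 1938 and 1291 CPM in female LKO livers, and 838, 394, 224 and 1208 CPM in male CRE- and 1107, 567, 607 and 543.5 CPM in male LKO livers, with Clec4f or Lyz2 the most abundant and none at 0. Female LKO replicate 1, which was lowest in Ghr and Igfals among the 16 livers, was highest in this sum. The Igf1 of that liver, at 605.5 CPM, was the highest of the females. Of 6 neutrophil markers 5 were tested and 1 rose in females, Retnlg, with a median of 2.86. Their sum was 35.6, 20.1, 16.5 and 16.55 CPM in female CRE-, 106, 43.4, 58.2 and 496 CPM in female LKO, 72.4, 20.2, 15.9 and 131 CPM in male CRE- and 26.75, 16.3, 12.7 and 12.5 CPM in male LKO livers. S100a9 or Csf3r was the most abundant, and Ly6g was at 0 in libraries of every group except female LKO. Of 5 proliferation genes 4 rose in females, with a median of 1.72, and their sum was 9.60, 7.96, 4.60 and 17.3 CPM in female CRE-, 76.2, 14.9, 30.2 and 31.6 CPM in female LKO, 11.6, 5.61, 21.01 and 8.83 CPM in male CRE- and 13.5, 7.995, 12.65 and 4.97 CPM in male LKO livers, with Mki67 or Top2a the most abundant. With female LKO replicate 2 left out the counts called were 5 macrophage, 5 neutrophil and 4 proliferation genes, and DESeq2 called 6, 5 and 5. The macrophage count was 0 without any CRE- replicate and without LKO replicates 1 and 3, and the neutrophil count was 0 without CRE- replicates 2, 3 and 4 and LKO replicates 1 and 4 and was 4 without LKO replicate 3. For proliferation, leaving out CRE- replicates 1 to 4 in turn gave 1, 0, 0 and 2, and leaving out LKO replicates 1, 3 or 4 gave 0, 3 and 3.

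The endothelial list had 1 of 6 called in females, Cdh5, with a median of 0.52, and sums of 196, 256, 253 and 251 CPM in female CRE-, 363, 254, 243 and 289.8 CPM in female LKO, 149, 239, 193 and 201 CPM in male CRE- and 237, 228, 258 and 242 CPM in male LKO livers, from Clec4g, Stab2 or Cdh5. The endothelial count was 0 without female CRE- replicates 2, 3 and 4 and LKO replicate 1, and 2 without LKO replicate 2 and by DESeq2. In the T and NK, B and plasma, stellate, cholangiocyte and erythroid lists 0 genes were called in females by edgeR or DESeq2, and 1 of 7, 1 of 6, 0 of 7, 0 of 5 and 0 of 3 were at an unadjusted p under 0.05. Their medians were 0.28, 0.59, -0.07, 0.24 and 0.57. Summed T and NK markers were at 15.8, 5.15, 5.20 and 16.4 CPM in male CRE-, 23.1, 11.3, 8.84 and 5.51 CPM in male LKO, 16.15, 6.77, 8.88 and 22.3 CPM in female CRE- and 26.9, 15.01, 22.9 and 15.8 CPM in female LKO livers, most often led by Nkg7. Summed B and plasma cell markers, led by Jchain, were at 56.7, 42.7, 47.4 and 73.5, then 63.7, 59.7, 60.8 and 38.55, then 61.8, 29.1, 51.98 and 44.6 and then 72.5, 67.4, 133 and 22.5 CPM in that order of groups. The stellate and fibroblast sum was 318, 302.5, 605 and 397, then 455, 311, 283.5 and 277, then 343, 397, 417 and 394 and then 435, 370.3, 421 and 250.2 CPM. It was led by Dcn, except in male CRE- replicate 3, where Reln led. The cholangiocyte sum, mostly Spp1, was 60.8, 43.6, 44.2 and 101, then 81.8, 72.15, 90.2 and 88.6, then 117, 61.9, 53.1 and 64.5 and then 66.4, 146, 100.1 and 90.5 CPM. The erythroid sum, led by Hbb-bs, was 618, 535, 449 and 854, then 163, 334, 267.5 and 403, then 432, 397, 315 and 616 and then 329, 691, 229 and 1356 CPM. In each of the last 5 lists no marker was at 0 in any library. The part of any of these cell markers in the results for the 10 growth hormone genes was not tested.

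The stretches just before the starts of the 10 genes were searched for TTCNNNGAA, the palindromic motif that STAT5 is known to bind, which reads alike on both strands. RefSeq promoter sequences, from a table on GRCm38.p6, held windows for 9 of the 10, all except Socs2, and the 250 bases before each start were placed on GRCm39 by exact match. The motif stood in 4 of their 16 windows, in Igfals and Bcl6, so in 2 of the 9 genes. Across all genes it stood in 7.02% of 32851 windows and in at least 1 window of 8.13% of 27025 genes. More than 1 motif in a window occurred in 0.317% of windows, and window 2 of Bcl6 holds 3. These windows are printed because they hold the motif and because Igfals was the gene of the 10 called in females in every setting run. A match describes letters and is neither a binding site nor a cause. Capitals mark the motif, and each sequence runs from 250 bases before the start up to the start, on the strand of the gene. Igfals window 1 is chr17:25096568-25096817, plus strand, with the motif starting 236 bases before the start, and Igfals window 2 is chr17:25096955-25097204, plus strand, with it starting at 58 bases. Bcl6 window 1 is chr16:23807603-23807852, minus strand, with the motif starting at 118 bases, and Bcl6 window 2 is chr16:23800034-23800283, minus strand, with motifs starting at 168, 122 and 88 bases.
Igfals window 1: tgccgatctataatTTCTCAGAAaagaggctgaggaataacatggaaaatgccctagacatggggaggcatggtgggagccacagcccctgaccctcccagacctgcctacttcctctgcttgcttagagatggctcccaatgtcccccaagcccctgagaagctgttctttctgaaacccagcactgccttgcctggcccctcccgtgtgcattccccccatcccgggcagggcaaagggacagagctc
Igfals window 2: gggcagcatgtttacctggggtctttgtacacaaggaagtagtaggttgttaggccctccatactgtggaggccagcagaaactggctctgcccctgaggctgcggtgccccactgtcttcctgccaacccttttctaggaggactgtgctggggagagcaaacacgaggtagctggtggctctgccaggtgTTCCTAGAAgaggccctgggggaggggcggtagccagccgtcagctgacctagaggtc
Bcl6 window 1: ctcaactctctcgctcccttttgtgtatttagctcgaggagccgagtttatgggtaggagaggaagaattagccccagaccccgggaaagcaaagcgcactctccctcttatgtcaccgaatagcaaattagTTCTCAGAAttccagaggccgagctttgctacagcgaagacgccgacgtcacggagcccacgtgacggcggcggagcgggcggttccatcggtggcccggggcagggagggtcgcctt
Bcl6 window 2: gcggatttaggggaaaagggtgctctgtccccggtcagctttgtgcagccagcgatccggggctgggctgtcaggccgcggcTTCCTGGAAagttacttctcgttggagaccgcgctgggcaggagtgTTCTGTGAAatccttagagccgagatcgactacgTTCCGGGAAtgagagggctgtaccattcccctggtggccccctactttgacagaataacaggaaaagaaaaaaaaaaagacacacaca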

How the data were processed

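The authors deposited a table, which for every gene and library holds the raw read count. Their notes give STAR 2.7.1a on GRCm39 and featureCounts of Subread 2.0.6, after poly-A selection and paired sequencing. In the median library 87.98% of the counts of genes with a mean count up to 200 were even, so each mate appears to have been counted.

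Genes were filtered with filterByExpr of edgeR 4.0.16 in R 4.3.3 (minimum count 10), normalized by TMM and fitted jointly with 4 groups by the quasi-likelihood test, with p adjusted by Benjamini and Hochberg's method and a threshold of 0.05. For log2 CPM the prior count was 2. The alternatives were DESeq2 1.42.0, limma-voom with sample quality weights (limma 3.58.1), RLE size factors, no filter, at least 10 counts in every library (13000 genes), the groups of a comparison fitted alone, a replicate block, each library left out, and, chosen after seeing the data, 3 libraries left out.

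The 10 genes and the lists (growth hormone receptor signalling, IGF system, liver transcription factors, male-biased and female-biased targets, acute phase, fasting and insulin, and markers of hepatocytes, other cells and proliferation) were chosen with earlier results of these data known. From each list the genes called and the 3 with the smallest p in each sex were named, with the 3 genes most like each of 5 members, and Jak2 was added after its values were seen. Of the list genes 1, G6pc, was not in the table under that symbol, and 3 are not reported here and are left out of the list counts. The steps were tested on simulated data.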

Additional observations from a re-analysis of the deposited data

Results flagged for a closer look

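Among 46 genes, 184 groups of 4 livers were checked for a single liver far from the other 3, and 27 stood out, 5 of them for Gcgr or the 10 growth hormone genes. For values with a normal spread chance gives about 1 in 20 groups, and the share for these values was not tested. Gcgr was low in male CRE- replicate 3, at 127.3 CPM. Bcl6 was low in female CRE- replicate 2, at 4.302 CPM. Cux2 was high in male CRE- replicate 2, at 1.715 CPM, in male LKO replicate 1, at 60.35 CPM, and in female LKO replicate 2, at 96.39 CPM.

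Male LKO replicate 1 stood out 6 times, with Cux2, with Igf2 at 3.601 CPM, Sult2a1 at 115.6 CPM and Fgf21 at 113.3 CPM, all high, and with Cyp2d9 at 517.6 CPM and Cyp7b1 at 90.29 CPM, both low. Male CRE- replicate 2 stood out 5 times, each time high, with Cux2, with Foxa2 at 49.55 CPM, Tox at 15.39 CPM, Sult2a1 at 0.2673 CPM and A1bg at 2.428 CPM. Male CRE- replicate 3 stood out for Gcgr, and, on the high side, for Lepr at 10.3 CPM and Cyp3a41b at 0.052 CPM, which is 2 reads against 1 in each other male control. Female LKO replicate 4 stood out 5 times and each time high, with Igf2 at 458.1 CPM, Igfbp1 at 728.3 CPM, Orm2 at 1904 CPM, Lcn2 at 4025 CPM and Il1rn at 45.82 CPM.

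Elsewhere Stat3 was high in female CRE- replicate 1, at 276.2 CPM, and Socs7 was low in female CRE- replicate 4, at 7.484 CPM, and high in female LKO replicate 1, at 17.32 CPM. Esr1 was high in female LKO replicate 1, at 30.01 CPM, and Fgf21 in male CRE- replicate 4, at 2.495 CPM. Igfbp2 was low in male LKO replicate 2, at 396.7 CPM. No cause was tested for any of these values.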

How the results depend on the processing

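For Gcgr and the 10 growth hormone genes, 957 log2 fold changes were recomputed over the 5 comparisons. Direction and side of the threshold were kept in 862, the call was lost in 23 and gained in 26, and the sign turned in 46, of which 28 came from leaving out a library. With the list genes the numbers were 1657, 1432, 104, 52 and 69. The cause of these changes was not tested, beyond the fewer samples or genes that a setting uses. RLE size factors moved the median of all genes by at most 0.0296.

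Of the 10 genes, DESeq2 called 2 in males, 1 in the difference between the sexes, 3 between the sexes in CRE- livers and 2 in LKO livers. Fitting the groups alone called 1 in females. At least 10 counts in every library left 0 between the sexes in CRE- livers. Limma-voom called 3 between the sexes in CRE- livers and 4 in LKO livers. Without the 3 libraries (male CRE- 3, male LKO 1 and female LKO 1), an alternative chosen after seeing the data, these were 2 and 3. With 1 library left out there were 1 to 2 in females, 0 to 2 between the sexes in CRE- livers and 0 to 3 in LKO livers.

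Over all genes DESeq2 called 339 in males, 1809 in females, 371 in the difference, 506 between the sexes in CRE- livers and 1057 in LKO livers, and limma-voom 148, 1976, 29, 329 and 953. Groups fitted alone gave 119 in females and 249 and 16 between the sexes in CRE- and LKO livers. The strict filter gave 78 and 102 there. No filter gave 12 in the difference, and leaving out the 3 libraries gave 12 there and 378 between the sexes in LKO livers. With 1 library left out the counts were 26 to 49 in males, 87 to 1310 in females, 0 to 14 in the difference, 68 to 149 in CRE- livers and 49 to 684 in LKO livers.

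A block for replicate number called 1244 genes in females and 514 between the sexes in LKO livers, and of the 10 it called 2 between the sexes in CRE- and 1 in LKO livers. In the difference between the sexes the block turned Socs2 to -0.027 and Bcl6 to -0.075. Whether equal numbers pair mice was not settled: r between CRE- and LKO deviations of the same number was 0.17, 0.17, 0.14 and -0.01 in males and 0.17, 0.10, 0.12 and 0.03 in females, and 4 of the 8 controls had the LKO liver of their own number as best match.

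The sign turned without the 3 libraries in males for Cux2 (-0.188), Cebpa (0.039), Cyp3a41b (0.495) and Sult2a1 (-1.256), in females for Cux2 (0.068) and Cyp2a4 (0.207, and 0.011 by DESeq2), in the difference for Igf1 (-0.157) and Cux2 (0.256), and between the sexes for Gcgr in CRE- (-0.044) and for Stat5a (-0.043) and Igf1 (-0.185) in LKO livers. It turned in limma-voom for Igfals in males (0.009), for Igf1 (-0.198), Socs2 (-0.063) and Onecut1 (-0.249) in the difference, for Ghr (0.011), Igf1 (0.072), Cish (0.292) and Onecut1 (0.271) between the sexes in CRE- livers and for Igf1 (-0.125) in LKO livers.

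With each library left out, values that crossed 0 ran in males from -0.123 to 0.166 for Stat5a, -0.072 to 0.25 for Stat5b, -0.265 to 0.102 for Igfals, -0.086 to 0.692 for Bcl6, -0.005 to 5.157 for Cux2, -0.309 to 0.1 for Ptpn6, -0.23 to 0.064 for Cebpa, -0.41 to 0.148 for Cyp3a41a, -0.642 to 0.139 for Cyp3a41b, -2.512 to 0.497 for A1bg, -0.912 to 9.778 for Sult2a1 and -0.285 to 0.171 for Il1rn. In females they ran from -0.266 to 0.03 for Stat5a, -0.015 to 0.513 for Cish, -0.626 to 0.149 for Cux2, -0.017 to 0.285 for Cyp7b1, -0.942 to 0.366 for Cyp2a4 and -0.149 to 0.809 for Orm1. In the difference they ran from -0.378 to 0.337 for Socs2 and -0.287 to 0.486 for Bcl6. Between the sexes they ran from -0.041 to 0.167 for Gcgr and -0.501 to 0.185 for Cish in CRE- livers, and from -0.05 to 0.243 for Stat5a, -0.212 to 0.111 for Stat5b and -0.067 to 0.329 for Igf1 in LKO livers.

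With 4 livers in a group the intervals of 5 of the 10 genes in males and 7 in females held 0, and a missed threshold does not show that levels were alike. Cux2 and Cyp3a41b had few reads in male CRE- livers, so counting error adds to their spread. The spread of Cux2 also takes in male LKO replicate 1, at 60.35 CPM, far above the rest of its group. The part of each in the spread was not tested. Shared controls tie the comparisons to each other.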
